A study of Homo sapiens with 2 samples.

Results

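DLEU1 is a long noncoding RNA gene in chromosome band 13q14, and the array probes that lie around it were read here as a stretch of chromosome. The members were all non-control probes that the array files placed on chromosome 13 with a start between position 46000000 and position 55000000 of the human genome release hg19, whatever gene they named. This window of 9 Mb held 164 of the 58201 probes of the array, with 130 of its 43317 gene names. The RNA came from Ca9-22, an established oral squamous cell carcinoma (OSCC) cell line. One group of cells carried a control lentiviral vector without insert. The other carried a lentiviral vector for ectopic expression of DLEU1, and both had been kept in 6 mg/ml blasticidin for 2 weeks to remove uninfected cells. Each group gave 1 array, so no value has a replicate spread and no test was made. The labels did not say whether the infected cells were 1 clone or a mixture, and neither they nor the methods named the promoter that drives DLEU1.

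The region is best known from chronic lymphocytic leukemia, in which it is often deleted. The smallest deleted part holds DLEU1 and its neighbour DLEU2, which are transcribed away from each other, and the microRNAs miR-15a and miR-16-1 lie inside DLEU2 and repress genes such as BCL2. TRIM13, KCNRG, SPRYD7 and DLEU7 lie around this part, and the tumor suppressor RB1 lies further towards the centromere. In the RefSeq annotation, TRIM13 and KCNRG lay within DLEU2, DLEU1 overlapped DLEU2, and LPAR6 lay within RB1. DLEU1 has been described as a growth-promoting RNA in carcinomas, and ectopic expression from a virus adds copies of the RNA away from the 13q14 locus. The probes of the window were read to see which genes near the locus differed.

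All values below are levels on the log2 scale relative to the 75th percentile of the array, and all differences are the level with the DLEU1 vector minus that with the control vector. A probe was taken as detected where the scanner software marked it as well above background, and as called where the arrays were at least 2-fold apart. The label of the cell line was read against its markers. All 8 markers of oral squamous epithelium were detected on both arrays, and the log2 of their summed level was 9.90 in control vector cells and 10.98 in DLEU1 vector cells. The sum hides unequal differences. KRT5 (2.10), KRT14 (2.85), KRT6A (2.91), KRT17 (3.09), TP63 (0.96) and CDH1 (1.04) were higher with the DLEU1 vector. SFN, at 9.31 on both arrays, differed by 0.00, and EPCAM was lower (-0.78). Of the markers of other cells, COL1A1 (0.47 and 4.47), VWF (-2.33 and 1.37), CDH5 (-2.14 and -2.73) and PTPRC (-1.74 and -1.28) were detected on both arrays. COL1A2, COL3A1, PECAM1 and CD3E were detected on neither. The summed level was 0.50 and 4.47 for 3 fibroblast markers, -1.17 and 1.46 for 3 endothelial markers, and -1.54 and -1.19 for 2 leukocyte markers. What part these differences have in those of the window was not tested. In a bulk sample, fewer cells with a transcript and less of it per cell cannot be told apart. A strip of the DLEU1 vector array was taken as dim, with 32.9% of spots more than 2-fold lower against 13.4% elsewhere. Its blocks were picked where over 30% of spots well above background on the control vector array were that much lower, with neighbouring blocks over 20%. The higher share in the strip is thus built into its choice. The strip held 5 members, COG3 and 1 of the MED4 probes among them, and 0 of the called members.

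The probes that carried the results are 60 bases long. Their sequences are printed with the gene or transcript that the array names, which was not tested by alignment. Those inside the stretch from the first to the last DLEU1 probe (chr13:50679272-51102104 in hg19, plus strand, called the DLEU1 span below) came first, since the difference between vectors varied along it. The capitals in the last lines mark a run of 33 bases that the probes A_22_P00017514 of INTS6-AS1 and A_21_P0011143 of XLOC_l2_003732 share, so these probes are not independent readings of 2 transcripts. Each is given with its hg19 position.
DLEU1 A_23_P151337, for the transcript NR_002605, chr13:50679272-50679331, plus strand: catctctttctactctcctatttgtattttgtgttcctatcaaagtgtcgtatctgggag
ENST00000461527 A_21_P0008064, chr13:50989288-51007557 (60 bases split over this stretch), plus strand: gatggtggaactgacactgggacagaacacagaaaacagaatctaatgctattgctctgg
DLEU1 A_21_P0007910, for the transcript NR_109974, chr13:51066840-51066897, plus strand: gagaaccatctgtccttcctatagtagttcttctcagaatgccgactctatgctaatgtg
DLEU1-AS1 A_33_P3329462, chr13:51095286-51095345, minus strand: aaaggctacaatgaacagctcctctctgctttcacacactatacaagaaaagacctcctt
DLEU1 A_19_P00321577, for NR_109974, chr13:51102045-51102104, plus strand: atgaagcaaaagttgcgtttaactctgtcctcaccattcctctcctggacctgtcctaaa
lnc-SPRYD7-1 A_22_P00015351, chr13:50618591-50618650, minus strand: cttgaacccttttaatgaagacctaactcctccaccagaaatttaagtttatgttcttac
INTS6-AS1 A_21_P0014503, chr13:52028785-52028844, plus strand: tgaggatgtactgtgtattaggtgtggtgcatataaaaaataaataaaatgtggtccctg
INTS6-AS1 A_22_P00017514, chr13:52028405-52028464, plus strand: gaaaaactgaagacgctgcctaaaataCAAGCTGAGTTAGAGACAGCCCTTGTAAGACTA
XLOC_l2_003732 A_21_P0011143, chr13:52028432-52042429 (60 bases split over this stretch), plus strand: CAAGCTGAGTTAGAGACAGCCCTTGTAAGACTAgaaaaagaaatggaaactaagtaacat

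DLEU1 itself was read by 3 probes of that name, all detected on both arrays. The probe A_23_P151337 at the centromeric end of the span had a processed signal of 2178 in control vector cells and 14156 in DLEU1 vector cells. Its level was 3.17 and 5.91, a difference of 2.74, or 6.67-fold. The probes of the other transcript, at the far end of the span, were dim and differed less. A_21_P0007910 had levels of -2.86 and -2.32, a difference of 0.54. A_19_P00321577 had levels of -2.11 and -1.26, a difference of 0.85. The DLEU1 probes therefore went the same way but by unequal amounts, and the mean of the 3 was 1.38. The methods say that the vector held the full-length DLEU1 cDNA and do not give its sequence, so which of these probes lie in the insert was not tested. RNA from the vector and from the chromosome cannot be told apart by a probe that lies in both.

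Other transcripts of the DLEU1 span were also higher with the DLEU1 vector. ENST00000461527, which the array describes as a transcript of DLEU1, had levels of -2.19 and -1.09, a difference of 1.10 (2.14-fold). DLEU1-AS1, an antisense RNA from the opposite strand, had levels of -2.31 and -1.44, a difference of 0.87. FLJ31945, a predicted transcript, had levels of -3.14 and -2.81, a difference of 0.33. ENST00000483169, also described as a DLEU1 transcript, was detected on neither array. Of the 7 probes inside the span, 6 were thus detected on both arrays and all 6 were higher, with a median of 0.86. Over all probes detected on both arrays, 11983 of 26279 were higher. The 6 include the probes named DLEU1, the RNA that the vector expresses, so their count is not independent of the design. Only A_23_P151337 reached a processed signal of 100 on both arrays, so 5 of the 6 differences come from dim spots. The sign of FLJ31945 turned under spike-in scaling (-0.13).

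Over the whole window, 81 of the 164 probes were detected on both arrays, 4 on the control vector array only, 7 on the DLEU1 vector array only and 72 on neither. By array, 51.8% of the window's probes were detected in control vector cells and 53.7% in DLEU1 vector cells, against 47.6% and 48.1% of all probes. The share detected on the DLEU1 vector array only was 4.27% in the window and 2.9% over all probes, and the share detected on the control vector array only was 2.44% and 2.49%. Among the 81 detected on both arrays, 38 were higher and 43 lower with the DLEU1 vector. A total of 7 (8.64%) were at least 2-fold higher, against 8.98% of all 26279 probes detected on both arrays. At least 2-fold lower were 3 (3.70%), against 9.78%. The split of 7 higher and 3 lower became 3 and 11 with spike-in scaling, 2 and 3 with normexp. The median difference was -0.06 in the window and -0.07 over all probes. The middle of the distribution, from the lower to the upper quartile, ran from -0.41 to 0.52 in the window and from -0.52 to 0.40 over all probes. The 413 probes on the rest of chromosome 13 that were detected on both arrays had a median of -0.13, and 6.30% of them were called higher and 11.4% lower. Medians of whole chromosomes ran from -0.13 (chromosome 19) to -0.02 (chromosome 15), so the median of the window lay within the range of the chromosomes. The probes and genes of the window are neighbours and not replicates, and these counts describe 1 pair of arrays.

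**Figure D1:**
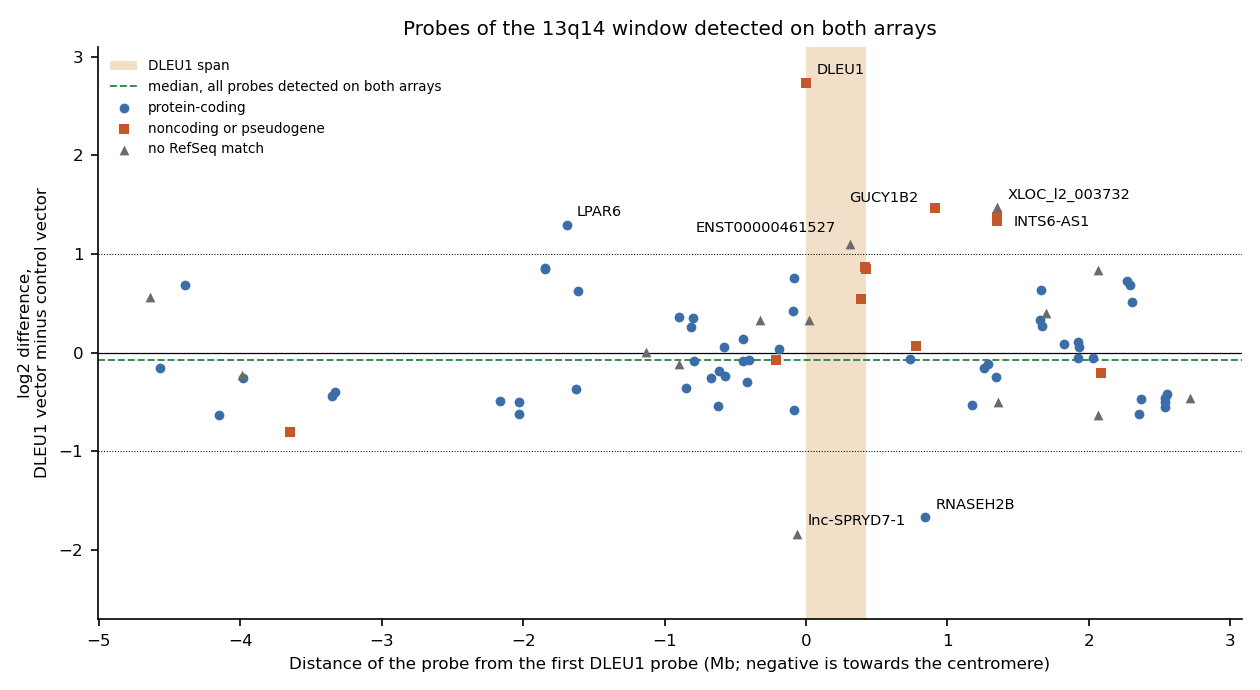
Each point is a probe of the window detected on both arrays, and 80 are drawn. The horizontal axis is the distance from the first DLEU1 probe in Mb, negative towards the centromere, and the vertical axis is the log2 difference. The dotted lines mark 2-fold, the shaded band is the DLEU1 span and the dashed line the median of all probes detected on both arrays (-0.07). The 6 probes in the band are all above 0, and 3 of them are named DLEU1, the RNA that the vector expresses. Outside the band, probes lie above and below 0. The 5 more than 2 Mb away on the telomeric side, 3 of them of HNRNPA1L2, are all below 0. At 1 to 2 Mb on the centromeric side, 5 of 6 are above 0.

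By distance from the DLEU1 span, the sign of the differences varied with no steady course. The 11 detected probes within 0.5 Mb on the centromeric side had a median of -0.07, and the 11 between 0.5 and 1 Mb had -0.11 with 0 called. The 6 between 1 and 2 Mb had a median of 0.74, with 5 of 6 higher. Among the 13 beyond 2 Mb, 11 were lower, with a median of -0.43. On the telomeric side the medians were 0.01 within 0.5 Mb (4 probes), -0.13 between 0.5 and 1 Mb (8 probes) and 0.10 between 1 and 2 Mb (17 probes). The 5 beyond 2 Mb were all lower, with a median of -0.46 and a spread of 0.05 (SD over probes). They were 3 probes of HNRNPA1L2 and those of SUGT1 and ENST00000377951. HNRNPA1L2 and ENST00000377951 are copies of other genes, and their probes can read the parent gene. Over all probes detected on both arrays, 11983 of 26279 were higher, with 8.98% called higher and 9.78% called lower. Among window probes between 0.5 and 1 Mb on the telomeric side, 3 of 8 were called, all from INTS6-AS1 or the transcript that shares its sequence. Among those between 1 and 2 Mb on that side, 0 of 17 were called. Whether called probes were placed unevenly was not tested. Across the 81 probes, the unsigned distance from the span and the difference had a Pearson r of -0.20 and a Spearman rho of -0.29. With the size of the difference the r was -0.07 and the rho 0.10. These values describe neighbouring probes, several of the same gene, that were read on the same pair of arrays. The 81 include the 6 probes inside the span, at distance 0, and 3 of these are named DLEU1. DLEU1 is the RNA that the vector expresses, so the correlations with distance are not independent of the design. The GC percent of the probe had an r of 0.07 with the difference, and the mean level had -0.11.

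The genes next to the DLEU1 span on the centromeric side included a long noncoding RNA that fell by more than 2-fold. lnc-SPRYD7-1, a long noncoding transcript 60.6 kb from the span on the opposite strand, had a level of 1.17 in control vector cells and -0.67 in DLEU1 vector cells. It fell by 1.83 on the log2 scale, or 3.57-fold, and its only probe is the sequence shown above. The probe lies between those of KCNRG and DLEU1, on the strand of DLEU2, which holds KCNRG and overlaps DLEU1 in RefSeq, and whether it reads DLEU2 was not tested. KCNRG, a regulator that interferes with the assembly of potassium channels, lay 84.6 kb away with levels of -2.19 and -2.77, a difference of -0.58. TRIM13, a ubiquitin ligase of the endoplasmic reticulum, was read by 2 probes with differences of 0.43 (levels of 2.53 and 2.96) and 0.75 (levels of 0.50 and 1.26). TRIM13 and KCNRG thus differed in opposite directions, both below 2-fold, although both lie within DLEU2. The sign of TRIM13 turned under spike-in scaling (-0.04), where KCNRG was at -1.04. SPRYD7, a small protein with a SPRY domain, had levels of -0.13 and -0.09. CTAGE10P, a pseudogene, had levels of -2.46 and -2.53.

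Up to 0.5 Mb in the same direction, the differences of the detected genes further out were below 2-fold. KPNA3, an importin that carries proteins into the nucleus, had levels of 3.55 and 3.48. EBPL, related to a sterol isomerase, had 3 probes with differences from -0.30 to 0.14. lnc-EBPL-2 had levels of -2.03 and -1.70. DLEU2, miR-15a and miR-16-1 had no probe of those names in the files, so no level is given for them. Of the 10 genes listed for that region, 6 had a probe and 5 were detected on both arrays. Of these 5, 1 (DLEU1) was called, and the list median was 0.03.

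**Figure D2:**
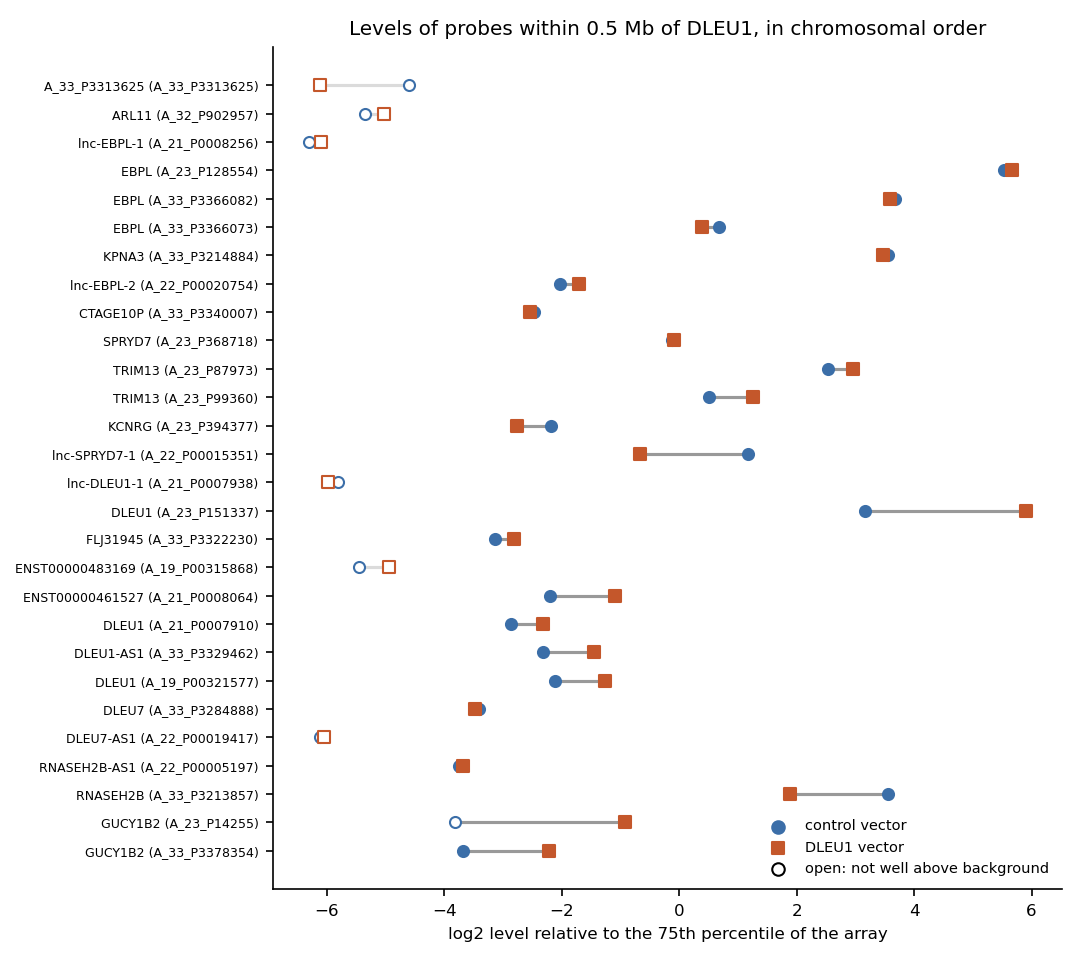
Levels of all probes within 0.5 Mb of the DLEU1 span, in chromosomal order with the centromeric end at the top. The horizontal axis is the log2 level relative to the 75th percentile of the array; circles are the control vector array, squares the DLEU1 vector array, and open symbols were not well above background. The DLEU1 probe A_23_P151337 moves from 3.17 to 5.91, while lnc-SPRYD7-1 and RNASEH2B move to lower levels.

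On the telomeric side, DLEU7 (-3.41 and -3.47) lay 315 kb from the span and was dim on both arrays, and its antisense RNA DLEU7-AS1 was detected on neither. RNASEH2B, a subunit of the enzyme RNase H2 that removes ribonucleotides from DNA, lay 420 kb from the span. Its level was 3.55 in control vector cells and 1.88 in DLEU1 vector cells, a fall of 3.18-fold (difference -1.67). The only RNASEH2B probe is designed for the transcript NM_001142279, so other isoforms were not read apart. RNASEH2B-AS1, from the opposite strand, was near the lower limit of detection with levels of -3.74 and -3.67. The fall was read on the sense strand only. A fall of that size in the antisense RNA would have put it below the lowest detected level with the DLEU1 vector (-4.04). RNASEH2B-AS1 was detected on both arrays, so no such fall was read on the antisense strand. Its probe was dim (signals of 18.1 and 18.5), which limits the reading of smaller differences.

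GUCY1B2, a pseudogene related to the beta subunits of soluble guanylate cyclase, was higher with the DLEU1 vector by both of its probes. A_33_P3378354 had levels of -3.68 and -2.22, a difference of 1.47 (2.76-fold). A_23_P14255 was not well above background with the control vector (-3.81) and was detected with the DLEU1 vector (-0.93), at least 7.38-fold higher. In such a bound the level on the dim array is the probe's own or the lowest level of any detected probe, whichever is higher. Both GUCY1B2 probes had signals below 20 with the control vector (17.2 and 18.9), so the size of the difference rests on dim spots. FAM124A had levels of -1.15 and -1.68, a difference of -0.53.

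INTS6 and INTS6-AS1 are neighbours on opposite strands with unequal differences. INTS6, a subunit of the Integrator complex that processes the ends of small nuclear RNAs, was detected on both arrays by 3 probes with differences from -0.24 to -0.11. Another INTS6 probe, A_33_P3316073, was detected with the DLEU1 vector only, at least 1.54-fold higher. INTS6-AS1 was higher by both of its probes. A_21_P0014503 had levels of -0.14 and 1.20, a difference of 1.34, and A_22_P00017514 had levels of -1.40 and -0.03, a difference of 1.37. XLOC_l2_003732, whose probe shares the run of 33 bases with the latter, had levels of -2.79 and -1.31, a difference of 1.48. These 3 readings differed from each other by less than from the INTS6 probes detected on both arrays. The starts of INTS6 and INTS6-AS1 were 309 bases apart on opposite strands in RefSeq (GRCh38.p14), and those of DLEU2 and DLEU1 were 128 bases apart for the nearest pair of starts. The 200 bases before the starts of INTS6-AS1 and DLEU1 are printed because they lie between, or across, the starts of such a pair.
INTS6-AS1, 200 bases before the start, GRCh38.p14 chr13:51453145-51453344, plus strand: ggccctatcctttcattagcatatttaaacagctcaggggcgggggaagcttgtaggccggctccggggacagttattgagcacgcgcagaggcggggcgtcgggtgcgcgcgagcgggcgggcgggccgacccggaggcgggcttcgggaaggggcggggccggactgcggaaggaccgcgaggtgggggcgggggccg
DLEU1, 200 bases before the start, GRCh38.p14 chr13:50081969-50082168, plus strand: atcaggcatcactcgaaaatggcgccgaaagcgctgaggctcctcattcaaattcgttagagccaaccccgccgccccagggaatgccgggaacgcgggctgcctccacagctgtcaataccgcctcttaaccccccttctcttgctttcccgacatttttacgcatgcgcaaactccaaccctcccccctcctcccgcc

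Among genes with roles in the cell cycle, chromatin and nucleic acids, all 13 listed had a probe and 12 were detected on both arrays. All 12 were lower with the DLEU1 vector (median -0.39), against -0.07 over all 20246 gene names detected on both arrays, of which 10968 were lower, and 1 of them, RNASEH2B, was at least 2-fold lower. RB1, the retinoblastoma tumor suppressor that holds back E2F factors, was the only member with repeated spots. Before scaling, its 10 spots had signals from 3622 to 4441 in control vector cells and from 2940 to 3287 in DLEU1 vector cells. These ranges did not overlap, and for how many other probes with repeated spots this holds was not counted. The difference of RB1 was -0.37 with an SD of 0.06 over spots (range -0.47 to -0.26), which measures the array surface and not the variation between cultures. MED4, a subunit of the Mediator complex, had differences of -0.50 and -0.62 by its 2 probes. ZC3H13, a component of the RNA methylation complex, had -0.63 (levels of -1.42 and -2.04). CKAP2, a spindle protein, had -0.47 and -0.62, and SUGT1, a chaperone cofactor needed at the kinetochore, had -0.41. SETDB2, a histone methyltransferase, had -0.19 and -0.54, and the kinase NEK3 had -0.06. The direction of this list depended on the scaling for its smallest members. Lower were 9 of 12 when only detected probes set the percentile, and 10 of 12 with quantile normalization and with loess, with list medians of -0.28, -0.23 and -0.20.

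HNRNPA1L2 and UTP14C, which belong to the same list, are intronless copies of other genes and their probes can read the parent gene. HNRNPA1L2 had 3 probes with differences from -0.55 to -0.45, and UTP14C had -0.05 and 0.06. The same limit holds for ENST00000595905 (-0.50, levels of 6.19 and 5.70) and ENST00000377951 (-0.46, levels of 7.59 and 7.13), described as pseudogenes of RPS4X and of PPIA. The 7 detected probes that start in the eighth megabase of the window, where CKAP2, HNRNPA1L2, SUGT1 and ENST00000377951 lie, were all lower, from -0.62 to -0.41, and none was called. Of these 7, 3 belong to HNRNPA1L2 and 1 to ENST00000377951.

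The list of metabolic genes also held RNASEH2B and GUCY1B2, given above as called. SUCLA2, a subunit of a citric acid cycle enzyme, had levels of 2.06 and 1.58, and ESD, an esterase, had 2.91 and 2.51. Other members were the copper transporter ATP7B (0.08), the mannosyltransferase ALG11 (0.10) and DHRS12, a dehydrogenase with differences of 0.63 and 0.27. The 3 probes of CAB39L, a scaffold of the LKB1 kinase, disagreed in sign, from -0.26 to 0.35, as did those of CDADC1 (-0.36 and 0.26).

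Receptors, adhesion molecules and secreted proteins were mostly not detected: 4 of 12 with a probe were detected on both arrays. All 4 were higher with the DLEU1 vector, with a median of 0.79, where 9278 of all 20246 gene names were higher. With spike-in scaling 3 of 4 were higher, FNDC3A was at -0.10 and the median was 0.33. LPAR6, a receptor for lysophosphatidic acid, had levels of -1.65 and -0.35, a difference of 1.30 (2.46-fold). RB1, within which LPAR6 lies on the opposite strand, differed by -0.37, and so these overlapping genes differed in opposite directions. ITM2B, a membrane protein that is cut to release a secreted peptide, had differences of 0.85 and 0.86 by its 2 probes (levels of 5.52 and 6.37 for the brighter). THSD1, a thrombospondin-domain protein, had 0.73 and 0.69, and FNDC3A had 0.36. The receptors HTR2A, CYSLTR2 and MLNR, the protocadherin PCDH8 and the secreted OLFM4, LECT1 and SERPINE3 were detected on neither array. Of 8 markers of leukocytes, liver, cartilage, testis and neurons with a probe in the window, LCP1 (6.11 and 5.85) and SPERT (-1.59 and -0.90) were detected. LCP1 encodes the actin-bundling protein plastin of leukocytes, which carcinoma cells often express too.

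Genes of ubiquitin and protein sorting all differed by less than 2-fold under the main scaling. Of 8 listed, 7 were detected on both arrays, with 5 higher, 2 lower and a median of 0.33. With spike-in scaling 2 were higher and 5 lower, with a median of -0.13, and KCNRG passed 2-fold (-1.04). RCBTB2 (0.63) and VPS36, a subunit of a membrane sorting complex (0.52), were the highest, and WDFY2, which binds endosomal lipids, had 0.33. RCBTB1, the paralog of RCBTB2, had -0.24. Among immune cell and cytoskeleton genes, 4 of 7 were detected on both arrays, namely LCP1 (-0.25), LRCH1 (-0.43), PHF11 (0.05) and FAM124A (-0.53), and their median was -0.34. The sign of PHF11 turned under median and spike-in scaling and with normexp.

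**Figure D3:**
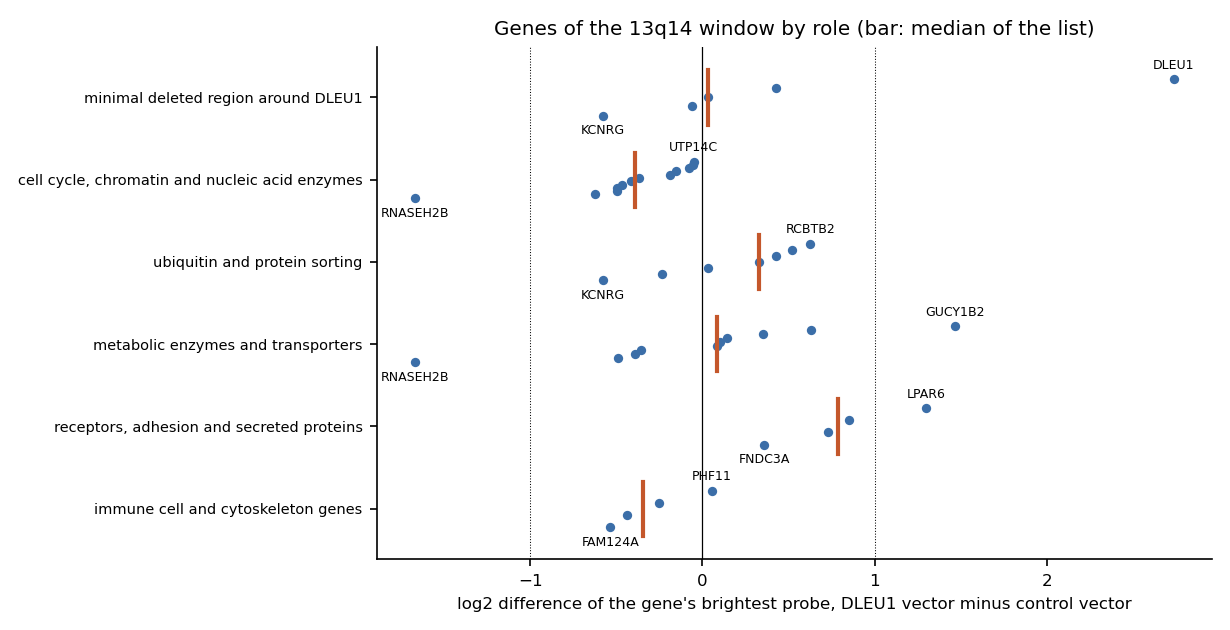
Log2 difference of the brightest detected probe of each gene, in 6 lists by role. Points are genes detected on both arrays, of which 1 is not drawn, bars are list medians and dotted lines mark 2-fold, and a gene may stand in more than 1 list. All 12 points of the cell cycle and chromatin list lie below 0 (median -0.39), and 9 of 12 do when only detected probes set the percentile. All 4 of the receptor list lie above 0 (median 0.79), and 3 of 4 do with spike-in scaling. The lists were chosen with earlier results of these data known.

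By kind of transcript, the window held protein-coding genes, noncoding RNAs and pseudogenes, and probes with no match. Over all probes detected on both arrays, 8.98% were at least 2-fold higher and 9.78% lower, and these shares were not taken by kind of transcript. Of 81 protein-coding probes, 56 were detected on both arrays, of which 1 was called higher and 2 lower (median -0.10). Of 29 noncoding or pseudogene probes, 11 were detected on both arrays, of which 4 were at least 2-fold higher and 0 lower, with a median of 0.85. Those 4 were the brightest DLEU1 probe, 1 GUCY1B2 probe and the 2 INTS6-AS1 probes, so that 3 genes gave all of them. All 3 probes named DLEU1, the RNA that the vector expresses, are among the 11 and enter their median. The remaining 54 probes, with no match in RefSeq, had 14 detected on both arrays, with 2 at least 2-fold higher and 1 lower. The lower one was lnc-SPRYD7-1, and this class too holds noncoding RNAs, so the count of 0 covers those matched in RefSeq only. LINC01198, a noncoding RNA, had levels of 0.18 and -0.62, a difference of -0.80. The share of noncoding or pseudogene probes detected was 41.4% in control vector cells and 51.7% in DLEU1 vector cells, and that of protein-coding probes was 70.4% and 71.6%.

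The probes detected on 1 array only had signals below 100 on both arrays, apart from GUCY1B2 A_23_P14255 (124 with the DLEU1 vector). With the DLEU1 vector only, beside GUCY1B2 and INTS6, these were LINC00441 (at least 1.73-fold higher), LINC00462 (at least 1.28-fold), the kinase gene NEK5 (at least 1.48-fold), TPTE2P3 (at least 1.40-fold) and lnc-OLFM4-2 (at least 1.06-fold). With the control vector only, these were lnc-SUCLA2-1 (at least 2.09-fold lower), LRRC63 (at least 1.79-fold), lnc-LRCH1-1 (at least 1.36-fold) and LOC103191607 (at least 1.29-fold). GUCY1B2 and lnc-SUCLA2-1 were thus the only ones whose bound reached 2-fold. Over all probes of the array, 604 of the 1690 detected with the DLEU1 vector only had such a bound. With the control vector only, 400 of 1452 did.

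The study was about interferon-stimulated genes, and so the RefSeq promoter windows of the members, from 250 bases before to 50 bases after a start, were searched on both strands for GAAANNGAA, a core of the sites bound by interferon regulatory factors. It was found in 7 of 49 windows of 37 genes detected on both arrays (14.3%), against 8.11% of 35116 windows over all genes. The genes were COG3 (-0.15), ZC3H13 (-0.63), LPAR6 (1.30), RCBTB2 (0.63), ATP7B (0.08), ALG11 (0.10) and HNRNPA1L2 (-0.50). So 1 of the 7 was called, and 3 of the 7 differences were below 0. Of all 20246 gene names detected on both arrays, 1858 were called higher and 1981 lower, and 10968 differences were below 0. The LPAR6 promoter is printed with the match in capitals, 14 bases before the start, where it reads on the opposite strand.
LPAR6, 200 bases before the start, GRCh38.p14 chr13:48413114-48413313, minus strand: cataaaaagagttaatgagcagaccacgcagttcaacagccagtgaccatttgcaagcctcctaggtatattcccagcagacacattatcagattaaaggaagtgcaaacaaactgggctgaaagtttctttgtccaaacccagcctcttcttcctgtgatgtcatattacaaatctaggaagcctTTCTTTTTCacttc
The E2F site, TTTCGCGC or TTTGGCGC, was found in 1 of the 49 windows (CDADC1, 83 bases before the start), against 1.15% of all windows. The windows of RNASEH2B, INTS6-AS1 and DLEU1 held neither motif. A match describes letters and not binding.

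**Figure D4:**
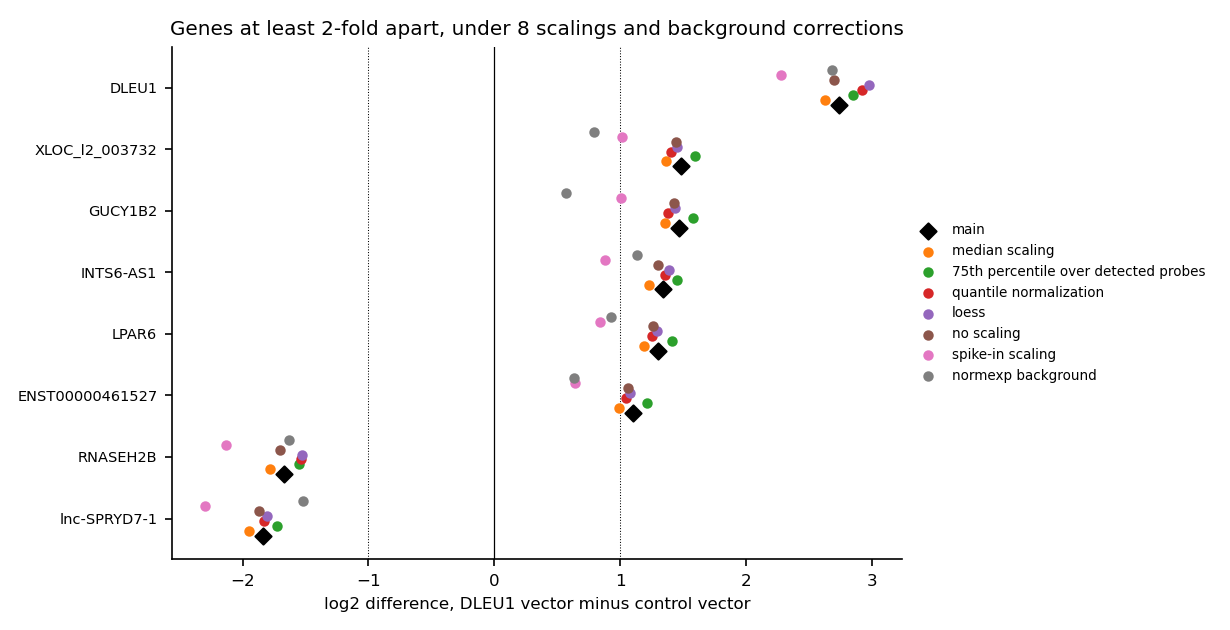
Log2 difference of 8 genes at least 2-fold apart, under the main scaling (black diamonds) and 7 other scalings or background corrections (circles), with dotted lines at 2-fold. DLEU1, RNASEH2B and lnc-SPRYD7-1 stay beyond 2-fold under all 8, while the other 5 fall below it under at least 1.

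Under other scalings and background corrections, DLEU1, RNASEH2B and lnc-SPRYD7-1 stayed at least 2-fold apart, as the plot of called genes by setting shows. The other 5 drawn did not. With normexp background correction, LPAR6 was at 0.93, GUCY1B2 at 0.57, XLOC_l2_003732 at 0.79 and ENST00000461527 at 0.63. With scaling to 8 spike-in probes, LPAR6 was at 0.84, INTS6-AS1 at 0.88 and ENST00000461527 at 0.64, and the median of all detected probes moved by -0.46. Of the named genes below 2-fold under the main scaling, KCNRG (-1.04), ZC3H13 (-1.09) and LINC01198 (-1.26) passed it with spike-in scaling. ITM2B passed it with quantile normalization (1.08) and loess (1.11).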

How the data were processed

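RNA of 2 groups of Ca9-22 cells, 1 array each, was labeled with Cy3 and hybridized to Agilent 1-colour arrays. The deposited intensity of each spot was a processed signal made with Agilent Feature Extraction 10.7.3.1. Per the file headers it had been background-subtracted, and it was not scaled between arrays. The authors analyzed the arrays in GeneSpring, and the deposited series values held the same processed intensity. Probe positions were those of the files (hg19). Control spots and spots marked as outliers (84 and 103) were left out, none of them a member.

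Processed signals were taken to the log2 scale, averaged over the spots of a probe, and the 75th percentile of the array (7.92 and 7.88) was subtracted (Python 3.11.15, pandas 2.3.3). A gene was represented by the brightest of its probes that passed detection on both arrays. Of 130 gene names, 72 matched a current RefSeq symbol, 2 an older one, 5 an accession and 51 none. Promoter sequences were those of RefSeq, GRCh38.p14, and the motifs searched in them were set after the values were seen, the interferon one after a search with a longer form of it. The SD of the log2 difference over repeated spots was 0.080, from 282 probes. Beyond this, precision is limited by having 1 array per group.

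The genes named were every DLEU1 probe, every gene called or with a bound of at least 2-fold, the 5 nearest genes on each side among those detected on both arrays, and members of the lists by role. One member gene that meets this rule is not reported here, though it is counted in the totals. Others (transcripts of the DLEU1 span, pseudogenes and single noncoding RNAs) were chosen after their values were seen. The members and lists were chosen with earlier results of these data known. Alternatives were other scalings (median, 75th percentile over detected probes, quantile, loess, none, spike-in), normexp background correction with an offset of 50 (limma 3.58.1), the series values, other filters and thresholds, the mean over probes, leaving out the dim strip or the DLEU1 probes, and a narrower window. The counting of calls was tested on simulated data.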

Additional observations from a re-analysis of the deposited data

How the results depend on the processing

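At least 2-fold higher were 7 probes, against 3 with spike-in scaling, 2 with normexp, 16 with no filter on dim probes, 2 with a signal of at least 100, 18 at 1.5-fold and 1 at 3-fold. At least 2-fold lower were 3, against 11 with spike-in scaling, 9 with no filter and 8 at 1.5-fold. The median over probes (-0.06) was 0.037 with loess, -0.17 with median scaling, 0.050 with the 75th percentile of detected probes, -0.52 with spike-in scaling, 0.051 with no filter and 0.072 within 2 Mb of DLEU1. The median over genes (-0.06) was 0.022, -0.17, 0.053, -0.52, 0.049 and 0.072 in the same order. The median of all detected probes moved by 0.07, -0.11, 0.11 and -0.46 under the first 4 of these scalings. The brightest DLEU1 probe (2.74) was at 2.27 with spike-in scaling, 2.62 with median scaling, 2.85 with the percentile of detected probes, 2.97 with loess and 2.92 with quantile normalization, and the mean of the DLEU1 probes was 1.38. The median in the DLEU1 span (0.86), whose alternatives were chosen after seeing the data, was 0.40 with spike-in scaling, 0.75 with median scaling, 0.97 with the percentile of detected probes, 0.50 with normexp and 2.74, from 1 probe, with a signal of at least 100. Of 586 values of 50 named genes, 361 stayed within the spot SD and 225 moved further. None of the called values turned its sign (0), 13 crossed 2-fold, and 32 values in 17 genes below 2-fold changed sign. Where a filter or a threshold changed a count, the number of probes counted changed by construction, and for the scalings and normexp the cause was not tested. Dim probes, such as those of GUCY1B2 and the far end of DLEU1, are limited by signal over background. No paired analysis was possible because each group had 1 array.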
